A study of Mus musculus with 10 samples.

Results

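The unfolded protein response and the integrated stress response were examined in whole mouse lung as a set of 37 genes, chosen by name from both pathways, after 12 weeks of arsenic in drinking water. All 37 were found among the 18194 genes that the array reads with a probe set of 1 gene symbol, and each was represented by its probe set with the highest mean. All 37 passed the filter on dim probe sets, as did 11333 genes in all. The exposed group held 5 adult female C57BL/6 mice given arsenic at 50 ppm, starting at 8 weeks of age. The control group held 5 adult female C57BL/6 mice given distilled deionized water, also for 12 weeks from 8 weeks of age. The compound is named arsenate for the series and arsenite in the notes on each exposed animal, so the exposed group is called arsenic here. No genetic modification is recorded for either group. Each animal gave 1 Affymetrix array, and every title carries a number shared by all animals of its group. Should that number stand for a cage or batch, exposure and batch cannot be told apart.

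Unfolded proteins in the endoplasmic reticulum (ER) are sensed by the membrane proteins IRE1 (gene Ern1), PERK (Eif2ak3) and ATF6 (Atf6). IRE1 splices the Xbp1 messenger RNA into the form that encodes an active transcription factor, ATF6 is cut in the Golgi to free another, and PERK phosphorylates the translation factor eIF2α. The kinases HRI (Eif2ak1) and GCN2 (Eif2ak4) phosphorylate the same site when heme or amino acids are short, which slows translation in general while favouring that of ATF4, and this shared branch is the integrated stress response. HRI is also known to be activated by arsenite in red cell precursors of mice. In the lung, secretory cells such as alveolar type 2 cells, club cells and plasma cells depend on this machinery. The array reads total transcript, so Xbp1 splicing, eIF2α phosphorylation and translation were not measured.

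The arrays had medians of 4.11 to 4.23 in arsenic lungs and 4.19 to 4.26 in control lungs on the log2 scale. Correlations between arrays were 0.990 to 0.997 over all probe sets, a measure that does not show a shift between groups. The difference between 3' and 5' probe sets of Actb, a sign of RNA quality, was 0.50 to 0.70 in arsenic lungs and 0.58 to 0.65 in control lungs. For Gapdh it was -0.57 to -0.42 in arsenic lungs and -0.54 to -0.48 in control lungs, and arsenic animal 5 was the lowest array in both. The part of RNA quality in the values below was not tested. The mean level of 14 type 2 cell markers, a check of the tissue, was 13.81 to 14.05 in arsenic lungs and 13.95 to 14.04 in control lungs. That of 12 club cell markers was 12.19 to 13.88 in arsenic and 11.97 to 13.86 in control lungs, with arsenic animal 5 and control animal 2 lowest. The markers did not vary alike. The SD was largest for Bpifa1 (3.01 in arsenic, 4.88 in control lungs) and Scgb3a1 (2.60 and 2.56). It was small for Scgb1a1 (0.051 and 0.046) and Cyp2f2 (0.054 and 0.088), so the mean level is no measure of club cell number. The 7 plasma cell markers tested had a mean level of 8.13 to 8.85 in arsenic and 8.35 to 9.12 in control lungs. Alveolar macrophage markers (13 tested) averaged 9.91 to 10.26 in arsenic and 9.82 to 10.15 in control lungs, and fibroblast markers (15 tested) averaged 11.29 ± 0.09 in arsenic and 11.41 ± 0.08 in control lungs (SD, n = 5 each). Endothelial markers (15 tested) averaged 11.46 to 11.92 in arsenic and 11.48 to 11.88 in control lungs. No cell type marker passed an adjusted p of 0.05 in limma. At an unadjusted p under 0.05, 3 macrophage markers were higher and 1 lower, 3 fibroblast markers were lower and 1 endothelial marker was higher. Over all genes tested, 10.6% were higher and 5.13% lower. A set of 29 kidney transcripts, of which 16 were under the filter, averaged 5.19 ± 0.63 in arsenic and 4.46 ± 0.59 in control lungs, with arsenic animal 4 highest at 6.27. The part of these marker lists in the values below was not tested, except that of the kidney level, which was entered as a covariate. In whole tissue, fewer cells of a type and less RNA per cell cannot be told apart.

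The 37 genes were chosen with earlier results of these data known, so the shares below describe them and do not test the set. None of the 37 genes passed an adjusted p of 0.05 in limma, in either direction, where 0.476% of all genes tested did. At an unadjusted p under 0.05, 7 of the 37 (18.9%) were higher and 1 (2.70%) was lower in arsenic lungs, against 10.6% and 5.13% of all genes tested. In 6 of the 37 (16.2%), all 5 arsenic values lay above all 5 control values, and in none all below; over all genes tested the groups did not overlap in 3.63%. These 6 were Herpud1, Chac1, Ddit3, Xbp1, Manf and Eif2ak1, with differences between 0.21 and 0.84 on the log2 scale. The main ER chaperone Hspa5 was not among them, nor was the transcription factor Atf4. The median log2 difference of the 37 was 0.10, and that of all genes tested was 0.057; 26 of the 37 were positive, as were 63.2% of all genes. With array weights the order of the medians turned, to 0.045 for the 37 and 0.052 for all genes, and without control animal 5 both were 0.075. Leaving out 1 animal moved the log2 difference by over 1.5 times in 24 of the 37 genes, none of them among the 6 without overlap. Such a ratio is large where the difference is small, and groups without overlap have a large difference for their spread. The steadiness of the 6 therefore follows from how they were picked and is no separate result. The lowest adjusted p among the 37 was 0.0960.

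**Figure D1:**
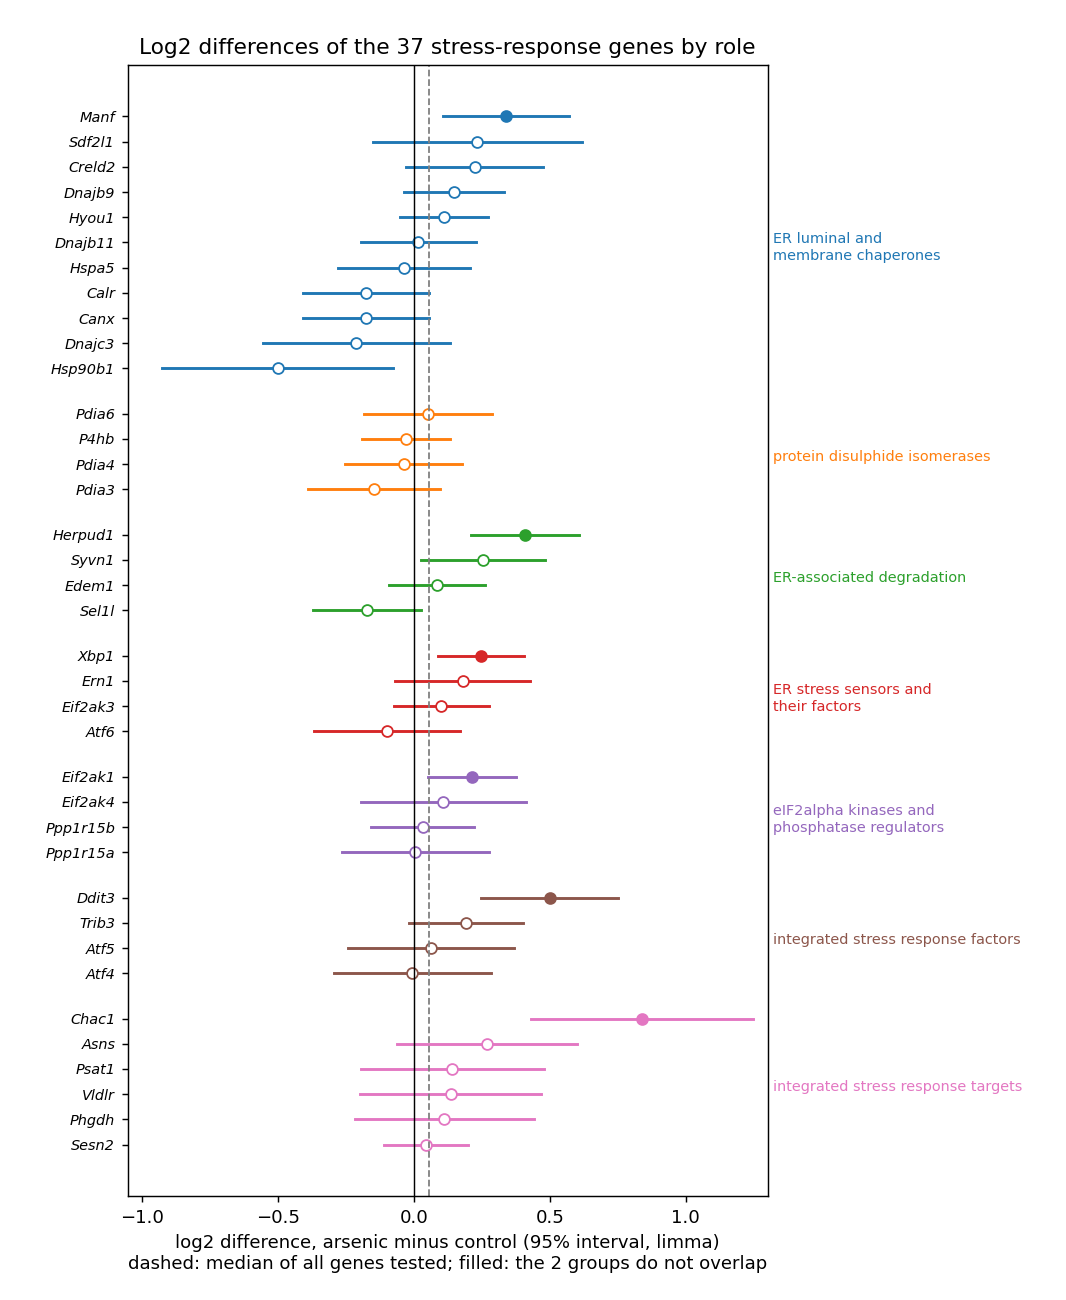
Log2 difference, arsenic minus control, of each of the 37 genes (points) with its 95% interval from limma (lines), grouped and coloured by role; filled points mark genes whose 2 groups of 5 lungs do not overlap. The filled points, 6 in all, lie to the right of 0 and of the dashed line at 0.057, the median of all genes tested, and the interval of Hsp90b1 lies wholly to the left.

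Many of these genes are known to carry stress-response sequences near their start, and the sequences are shown as a description of the 37 genes. The genes were chosen from the pathways in which these sequences act. A share of matches above that of all windows therefore follows from the choice and is no result of these data. RefSeq promoter windows (GRCm38.p6, 250 bases before to 50 after a start) were found for 33 of the 37 genes, as 37 windows. Manf, Hyou1, Ppp1r15b and Atf6 had no window, so the elements were not searched in these genes. The ER stress response element, bound by ATF6 with NF-Y, was searched as CCAAT, any 9 bases, then CCACG, on both strands. It was found in 8 of the 37 windows, against 0.119% of the 32851 windows in the table. The genes with it were Calr, Canx, Creld2, Dnajc3, Hsp90b1, Hspa5, Pdia6 and Syvn1, and Hsp90b1 has it at 2 places. Examples follow 5′ to 3′ on the strand of the gene, with the matched element, its inner 9 bases included, in capitals; where it reads from CGTGG to ATTGG it lies on the other strand.
Hspa5: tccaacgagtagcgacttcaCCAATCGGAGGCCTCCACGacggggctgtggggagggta
Hsp90b1: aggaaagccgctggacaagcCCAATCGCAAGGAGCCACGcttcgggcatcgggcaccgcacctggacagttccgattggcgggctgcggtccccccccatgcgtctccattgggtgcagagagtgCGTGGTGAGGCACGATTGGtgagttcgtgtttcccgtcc
Creld2: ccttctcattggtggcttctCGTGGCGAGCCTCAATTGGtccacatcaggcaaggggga
Syvn1: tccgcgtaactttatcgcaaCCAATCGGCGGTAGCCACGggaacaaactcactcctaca
These stretches lie at chr2:34772005-34772063 (plus strand), chr10:86705513-86705676 (minus strand), chr15:88819500-88819558 (plus strand) and chr19:6046512-6046570 (plus strand). The element of Hspa5 starts 65 bases before the start of transcription.

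A second form of the element, ATTGG, any base, then CCACG, was found in the windows of Herpud1 and Dnajb11 and in 0.0365% of all windows. The C/EBP-ATF response element, through which ATF4 and its partners act, was searched as TGATGNAA on both strands and was found in 5 of the 37 windows, against 3.97% of all windows. These belonged to Asns, Chac1, Herpud1, Trib3 and Vldlr. No window of the 37 genes held TGACGTGG, the core of another XBP1 and ATF6 element, which 0.676% of all windows hold. Neither form of the ER element overlapped a C/EBP-ATF match. The stretches of Herpud1, which has both kinds of match, and of Chac1, Asns and Vldlr are shown with the matches in capitals.
Herpud1: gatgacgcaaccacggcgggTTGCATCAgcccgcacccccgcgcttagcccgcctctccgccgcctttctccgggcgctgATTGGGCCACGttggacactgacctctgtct
Chac1: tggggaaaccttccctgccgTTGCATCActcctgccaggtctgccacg
Asns: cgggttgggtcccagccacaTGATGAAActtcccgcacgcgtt
Vldlr: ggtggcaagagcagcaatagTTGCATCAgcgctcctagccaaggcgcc
They lie at chr8:94386297-94386407 (plus strand), chr2:119351029-119351076 (plus strand), chr6:7693210-7693252 (minus strand) and chr19:27216800-27216847 (plus strand). The first capitals of Herpud1 are the C/EBP-ATF match on the other strand, 112 bases before the start, and the second are the short ER element, 52 bases before it. A match is a run of letters and does not show binding in these lungs.

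Differences between arsenic and control lungs, set against these matches, were as follows. Of the 8 genes with the long ER element, 3 had a positive and 5 a negative log2 difference, with a median of -0.10 and a range of -0.50 to 0.26. Both genes with the short ER element had a positive difference, Herpud1 of 0.41 and Dnajb11 of 0.017. All 5 genes with the C/EBP-ATF match, Herpud1 again among them, had a positive difference, with a median of 0.27 and a range of 0.14 to 0.84. Over the 9184 tested genes that have a window, 63.6% were positive and the median was 0.059. No test of the motif groups was made, since the genes were chosen by name.

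Among chaperones of the ER lumen and membrane, 1 of 11 had groups that did not overlap, against 3.63% of all genes tested. Manf encodes a small secreted protein of the stressed ER that binds Hspa5. It was at 12.45, 12.78, 12.40, 12.40 and 12.64 in arsenic lungs, against 12.39, 12.06, 12.10, 12.35 and 12.08 in control lungs (log2 expression). Arsenic animals 2 and 5 were highest, and control animals 1 and 4 came closest to the lowest arsenic values. Manf had a log2 difference of 0.34 (SE 0.11, adjusted p = 0.201).

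Hsp90b1 encodes the ER member of the HSP90 family. Its expression was 12.44, 11.88, 12.06, 12.42 and 11.76 in arsenic lungs, against 12.67, 12.33, 12.96, 12.95 and 12.15 in control lungs. The groups overlapped, with arsenic animals 2, 3 and 5 below all 5 control animals and arsenic animals 1 and 4 among them. The log2 difference was -0.50 (SE 0.19, adjusted p = 0.264), or 0.71-fold of the control level, and a second probe set of the gene had a log2 difference of -0.77. Hsp90b1 was the only one of the 37 genes that was lower at an unadjusted p under 0.05, against 5.13% of all genes tested.

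Hspa5 encodes BiP, the ER chaperone that holds the sensors inactive until unfolded proteins draw it away. Its expression was 13.85, 13.73, 13.54, 13.63 and 13.76 in arsenic lungs, against 13.87, 13.44, 13.86, 13.95 and 13.58 in control lungs, and the groups overlapped over most of their range. The log2 difference was -0.035 (SE 0.11, adjusted p = 0.892) with a 95% interval of -0.28 to 0.21, and the other probe sets of Hspa5 had log2 differences of 0.00084 and 0.10. Creld2, which encodes an ER resident protein induced by ER stress, was at 10.50, 10.82, 10.40, 10.41 and 10.50 in arsenic lungs, against 10.44, 10.19, 10.01, 10.42 and 10.45 in control lungs. Arsenic animal 2 stood above the rest of its group, and Creld2 had a log2 difference of 0.22 (SE 0.11, adjusted p = 0.364).

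The remaining chaperones had groups that overlapped and adjusted p-values above 0.4. Sdf2l1, which helps Dnajb11 to keep proteins soluble, ranged over 7.02 to 7.74 in arsenic lungs and 6.65 to 7.53 in control lungs. Dnajb9, a BiP cochaperone that restrains IRE1, ranged over 11.98 to 12.28 in arsenic lungs and 11.93 to 12.18 in control lungs, and the BiP nucleotide exchange factor Hyou1 averaged 9.12 ± 0.11 in arsenic lungs and 9.01 ± 0.06 in control lungs (SD, n = 5 each). Log2 differences of Sdf2l1, Dnajb9, Hyou1 and Dnajb11 were 0.23, 0.15, 0.11 and 0.017. That of Sdf2l1 was 0.12 without control animal 4, and that of Hyou1 was 0.072 without arsenic animal 2. The lectin chaperones Calr and Canx, which hold sugar-bearing proteins for folding, had -0.17 and -0.18, and Dnajc3, an inhibitor of eIF2α kinases, had -0.21. Of the 5 kept probe sets of Dnajc3, 4 were negative. As a group the 11 chaperones had a median log2 difference of 0.017.

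None of the 4 protein disulphide isomerases, which form and rearrange disulphide bonds, was at an unadjusted p under 0.05. Of all genes tested, 10.6% were higher and 5.13% lower at that level, so none of 4 is near that share. Pdia3, the partner of Calr and Canx, was at 12.69 ± 0.12 in arsenic lungs and 12.83 ± 0.21 in control lungs (SD, n = 5 each). P4hb, also a subunit of the collagen prolyl hydroxylase, was at 12.78 ± 0.09 in arsenic lungs and 12.81 ± 0.09 in control lungs. The log2 differences of Pdia3, P4hb, Pdia4 and Pdia6 were -0.15, -0.028, -0.037 and 0.053, and their 95% intervals were -0.39 to 0.097, -0.19 to 0.13, -0.25 to 0.18 and -0.18 to 0.29.

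In ER-associated degradation, which draws misfolded proteins out of the ER for the proteasome, Herpud1 had the smallest p of all 37 genes. Herpud1 encodes a membrane protein that organises the ubiquitin ligase complex. It was at 12.54, 12.70, 12.73, 12.65 and 12.88 in arsenic lungs, against 12.41, 12.23, 12.21, 12.15 and 12.45 in control lungs. Every arsenic lung lay above every control lung, and arsenic animal 5 was highest. The log2 difference was 0.41 (SE 0.09, adjusted p = 0.0960), or 1.33-fold, and the second probe set had a log2 difference of 0.45 with an adjusted p of 0.0585 over the 22552 probe sets kept.

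Syvn1 encodes the ubiquitin ligase HRD1 of this complex. It was at 9.64, 10.07, 9.76, 9.84 and 9.94 in arsenic lungs, against 9.73, 9.66, 9.63, 9.32 and 9.63 in control lungs. Arsenic animal 1 lay among the control lungs, and control animal 4 lay below all others. Syvn1 had a log2 difference of 0.26 (SE 0.10, adjusted p = 0.280). Sel1l encodes the adaptor that stabilises HRD1, and it was at 11.35, 11.16, 11.37, 11.27 and 11.06 in arsenic lungs, against 11.41, 11.26, 11.48, 11.60 and 11.31 in control lungs. It differed in the other direction, by -0.17 (SE 0.09, adjusted p = 0.380), with overlapping groups, and all 5 of its kept probe sets were negative. Edem1, which removes mannose to mark proteins for degradation, ranged over 9.05 to 9.31 in arsenic lungs and 8.96 to 9.26 in control lungs, with a log2 difference of 0.085.

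**Figure D2:**
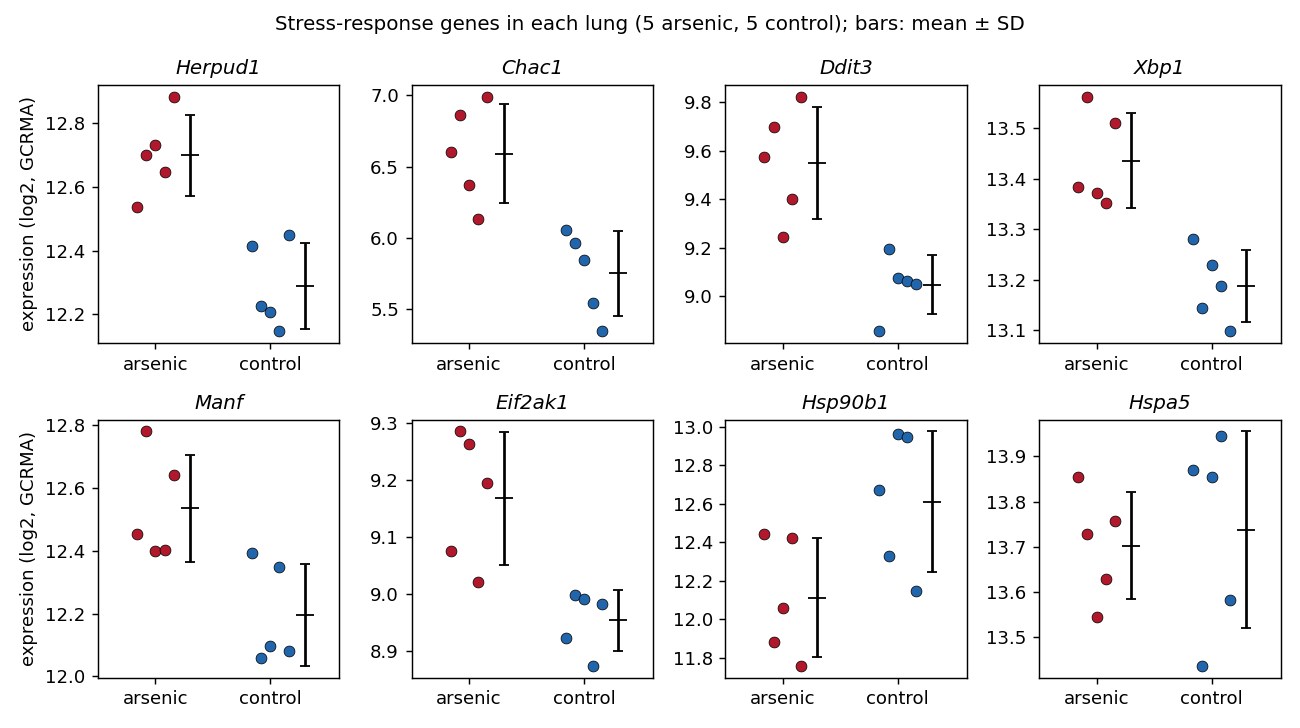
Log2 expression of 8 genes in each of 5 arsenic lungs (left, red) and 5 control lungs (right, blue); points are animals and bars give the mean and SD. The 6 genes from Herpud1 to Eif2ak1 show no overlap between the groups, whereas Hsp90b1 and Hspa5 overlap; each panel has its own axis.

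Of the 4 sensors and their factors, Xbp1 alone had groups that did not overlap, against 3.63% of all genes tested. Total Xbp1 transcript was 13.38, 13.56, 13.37, 13.35 and 13.51 in arsenic lungs, against 13.28, 13.14, 13.23, 13.19 and 13.10 in control lungs. The spread within a group was small, and arsenic animals 2 and 5 were highest. Xbp1 differed by 0.25 (SE 0.07, adjusted p = 0.179) on the log2 scale, or 1.19-fold. The other 3 kept probe sets of Xbp1 had log2 differences of 0.29, 0.096 and 0.23, with overlapping groups.

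The 3 sensor genes had overlapping groups. Ern1 was at 10.21, 10.53, 10.15, 10.01 and 10.38 in arsenic lungs, against 9.91, 10.18, 10.17, 9.90 and 10.21 in control lungs, with a log2 difference of 0.18 (SE 0.11, adjusted p = 0.441). Its kept probe sets had log2 differences of 0.18, 0.34 and -0.59, so they did not share a sign. Eif2ak3 was at 9.29, 9.42, 9.31, 9.34 and 9.55 in arsenic lungs, against 9.33, 9.42, 9.29, 9.16 and 9.21 in control lungs, with a log2 difference of 0.10 (SE 0.08, adjusted p = 0.535). Atf6 was at 9.45, 9.01, 9.30, 9.45 and 9.04 in arsenic lungs, against 9.21, 9.21, 9.48, 9.60 and 9.24 in control lungs, with a log2 difference of -0.098 (SE 0.12, adjusted p = 0.697). The 95% intervals of Eif2ak3 and Atf6 were -0.074 to 0.28 and -0.37 to 0.17.

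Of 4 further genes that set or remove eIF2α phosphorylation, only the kinase gene Eif2ak1 had groups that did not overlap, against 3.63% of all genes tested. It was at 9.07, 9.29, 9.26, 9.02 and 9.19 in arsenic lungs, against 8.92, 8.999, 8.99, 8.87 and 8.98 in control lungs. Control lungs lay within a narrow band, and arsenic animals 1 and 4 lay just above it. Its log2 difference was 0.21 (SE 0.07, adjusted p = 0.233), and other kept probe sets had log2 differences of 0.19 and -0.019, with overlapping groups. Eif2ak4 was at 7.23, 7.28, 7.19, 7.20 and 7.21 in arsenic lungs, against 7.35, 6.68, 7.41, 7.27 and 6.84 in control lungs, with a log2 difference of 0.11 (SE 0.14, adjusted p = 0.699). Control animals 2 and 5 were lowest there, and without control animal 2 the log2 difference was 0.0021. Ppp1r15a and Ppp1r15b, the inducible and the constitutive subunit that lead a phosphatase to eIF2α, had log2 differences of 0.0062 and 0.033. Ppp1r15a ranged over 8.76 to 9.07 in arsenic lungs and 8.50 to 9.16 in control lungs.

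Of 4 genes grouped as factors of the integrated stress response, only Ddit3 had groups that did not overlap, against 3.63% of all genes tested. Ddit3 encodes the pro-apoptotic factor CHOP. It was at 9.57, 9.70, 9.24, 9.40 and 9.82 in arsenic lungs, against 8.86, 9.19, 9.07, 9.06 and 9.05 in control lungs. The lowest arsenic lung, animal 3, lay close to the highest control lung, animal 2. Ddit3 had a log2 difference of 0.50 (SE 0.11, adjusted p = 0.107), or 1.41-fold. Atf4 encodes the central factor of the response, which is controlled mostly in translation. Its transcript was 10.92, 11.36, 10.99, 11.06 and 11.32 in arsenic lungs, against 11.05, 11.25, 10.99, 10.91 and 11.49 in control lungs. All 5 arsenic values lay within the range of the control values, the log2 difference was -0.0059 (SE 0.13, adjusted p = 0.985), and its 95% interval was -0.29 to 0.28.

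Trib3, a pseudokinase gene induced by ATF4 and CHOP, was at 6.42, 6.54, 6.64, 6.32 and 6.76 in arsenic lungs, against 6.41, 6.30, 6.41, 6.18 and 6.42 in control lungs. Arsenic animals 1, 2, 3 and 5 lay above all control lungs, animal 1 by very little, and animal 4 lay among them; Trib3 had a log2 difference of 0.19 (SE 0.09, adjusted p = 0.352). Atf5, another factor of the response, ranged over 8.80 to 9.29 in arsenic lungs and 8.64 to 9.35 in control lungs, with a log2 difference of 0.063; without arsenic animal 2 it was -0.016, without control animal 4 it was -0.0053 and without control animal 2 it was 0.17.

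Among target genes, Chac1 had the largest log2 difference of the 37 genes. Chac1 encodes an enzyme that degrades glutathione and is induced through ATF4. It was at 6.60, 6.86, 6.37, 6.14 and 6.99 in arsenic lungs, against 6.06, 5.97, 5.85, 5.55 and 5.35 in control lungs. All arsenic lungs lay above all control lungs, with arsenic animals 2 and 5 highest and control animal 5 lowest. Chac1 had a log2 difference of 0.84 (SE 0.18, adjusted p = 0.0970), or 1.79-fold, with a 95% interval of 0.43 to 1.25. Chac1 has 1 probe set on the array.

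Asns encodes asparagine synthetase, a classical target of the amino acid response. It was at 10.39, 11.06, 10.61, 10.36 and 10.75 in arsenic lungs, against 10.56, 10.41, 10.01, 10.31 and 10.53 in control lungs. Arsenic animals 2, 3 and 5 lay above all control lungs and animals 1 and 4 among them, and Asns had a log2 difference of 0.27 (SE 0.15, adjusted p = 0.397); without arsenic animal 2 it was 0.16. The serine synthesis genes Psat1 and Phgdh had log2 differences of 0.14 and 0.11. That of Psat1 was 0.044 without arsenic animal 3 and 0.28 without arsenic animal 4, and that of Phgdh was 0.031 without control animal 3 and 0.18 without control animal 1. Psat1 ranged over 5.66 to 6.59 in arsenic lungs and 5.93 to 6.13 in control lungs, wider in arsenic lungs, and Phgdh over 7.92 to 8.46 in arsenic lungs and 7.73 to 8.31 in control lungs. Sesn2, a stress-induced restraint on mTORC1, had a log2 difference of 0.045. The lipoprotein receptor gene Vldlr had 0.14; its highest arsenic lung was animal 4, at 11.11, the animal with the highest kidney level. Without that animal the log2 difference of Vldlr was 0.0095, and with the kidney level as a covariate it was -0.12.

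The 37 genes did not vary alike among animals. In the arsenic group, animal 2 had the highest value in 17 of the 37 genes and animal 5 in 9, while animal 4 had the lowest value in 15. Among the 6 genes whose groups did not overlap, arsenic animal 2 or 5 was highest in each. Hsp90b1, Canx, Dnajc3, Atf6 and Sel1l ran otherwise, with animals 2 and 5 the 2 lowest arsenic lungs for each. The order of animals was not particular to the 37. Mean levels in arsenic animals 2, 5 and 4 were 10.61, 10.60 and 10.50 for further ER folding genes. They were 14.05, 13.98 and 13.81 for type 2 cell markers, with animal 4 lowest in both. For further ER stress sensing genes, animal 2 was lowest, at 9.15. The medians of these arrays were 4.11, 4.14 and 4.23, and their part was not tested. The kidney levels of arsenic animals 1 to 5 were 5.17, 4.97, 4.89, 6.27 and 4.66. With the kidney level as a covariate, 16 of the 37 genes were at an unadjusted p under 0.05, 13 higher and 3 lower. Over all genes tested the share was 24.95% for both directions together, and it was not counted by direction. The median log2 difference was then 0.13 for the 37 and 0.096 for all genes, and still none of the 37 passed after adjustment.

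**Figure D3:**
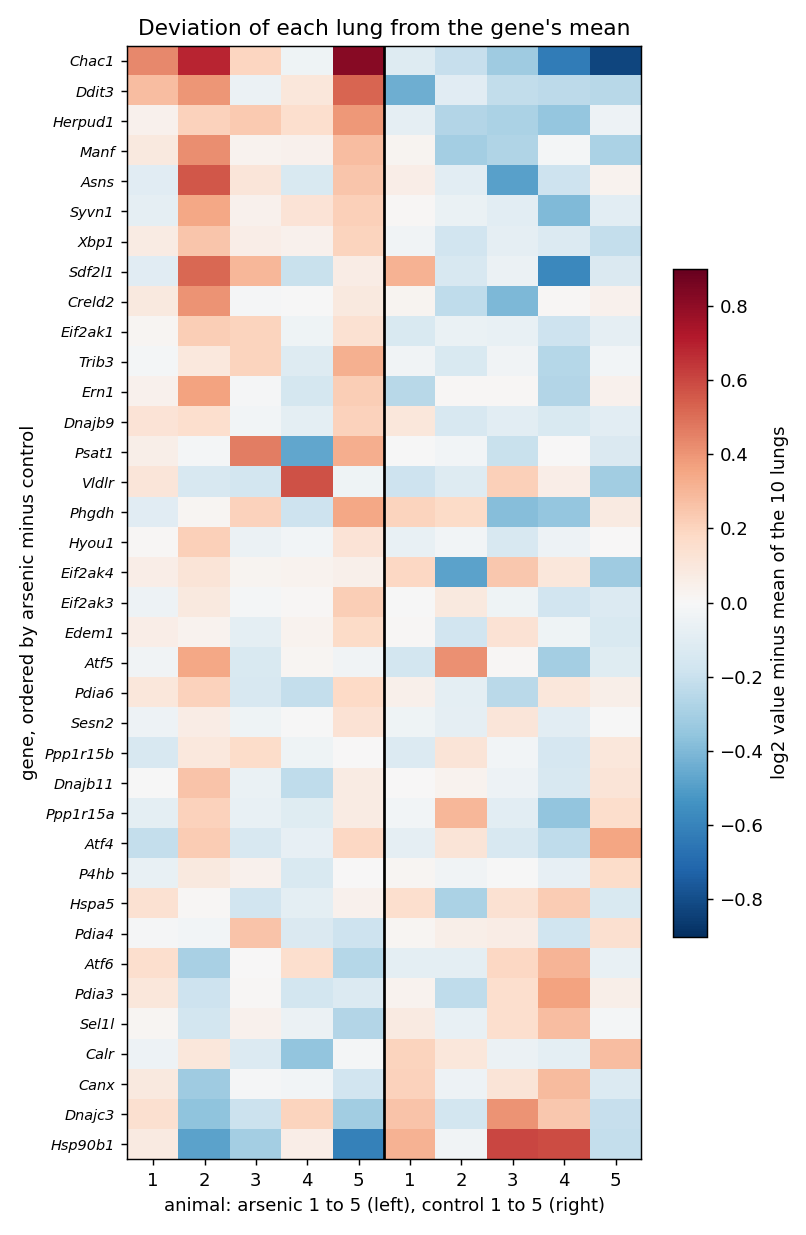
Deviation of each lung from the mean of the 10 lungs (log2), with the 37 genes in rows ordered by arsenic minus control and arsenic animals 1 to 5 left of control animals 1 to 5. Red is above and blue below the gene's mean; arsenic animals 2 and 5 are red for Chac1, Ddit3, Herpud1 and Manf at the top and blue for Hsp90b1, Dnajc3 and Canx at the bottom.

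Other genes of the same pathways were taken from lists chosen by function, also with earlier results of these data known. Of 156 further entries in 4 lists, 139 genes were tested and none passed the adjusted p, with 21 higher and 6 lower at an unadjusted p under 0.05 (10.6% and 5.13% of all genes) and a median log2 difference of 0.089. In 7 of the 139 all arsenic lungs lay above all control lungs, and in 1 all below, where the groups did not overlap in 3.63% of all genes. Of 52 tested genes of ER folding and protein export, 4 were higher and 1 lower at that level, with a median of 0.055. They were led by Fkbp14, a collagen prolyl isomerase gene, at 9.61 ± 0.22 in arsenic and 9.03 ± 0.18 in control lungs (SD, n = 5 each, log2 difference 0.59, adjusted p = 0.0855), followed by the oligosaccharyltransferase gene Stt3b (0.24), the signal peptidase gene Sec11a (0.27) and the translocon gene Sec62 (-0.49).

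Of 24 tested genes of ER-associated degradation, 3 were higher and none lower at an unadjusted p under 0.05, against 10.6% and 5.13% of all genes tested. Their median log2 difference was 0.11. The ubiquitin-conjugating enzyme gene Ube2g2, which works with ubiquitin ligases of the ER, had a log2 difference of 0.35 (SE 0.09, adjusted p = 0.146), Selenos 0.20, Rnf5 0.23 and the lectin gene Os9 0.16. Of 18 tested genes of ER stress sensing and signalling, 3 were higher and 1 lower at that level, against the same shares of all genes. The kinase gene Mapk8, encoding JNK1, was at 7.43 ± 0.52 in arsenic and 8.44 ± 0.44 in control lungs, without overlap (log2 difference -1.01, adjusted p = 0.158). The pro-apoptotic gene Bcl2l11 had 0.33, Wfs1 0.28 and Zbtb17 0.21.

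Of 45 tested genes of the integrated stress response outside the 37, 11 were higher and 4 lower at an unadjusted p under 0.05, against 10.6% and 5.13% of all genes tested, so that the shares of both directions were above those of all genes. Of the 45, 38 had a positive log2 difference, as did 63.2% of all genes. The enzyme gene Cth, which makes cysteine from cystathionine, was at 9.32 ± 0.27 in arsenic and 8.68 ± 0.22 in control lungs, without overlap (log2 difference 0.64, adjusted p = 0.106). The methionyl-tRNA synthetase gene Mars1 had 0.36 (adjusted p = 0.119), and Eif2b3 and Eif2b1, subunits of the exchange factor that phosphorylated eIF2 blocks, had 0.36 and 0.42. All 5 eIF2B subunits had a positive log2 difference, with a median of 0.26, and 10 of 12 aminoacyl-tRNA synthetases did, with a median of 0.12. Of 7 amino acid transporters, 6 were positive, with a median of 0.052, close to the 0.057 of all genes, and a lowest value of -0.25. The lowest log2 difference of this list was that of the factor Atf3, at -1.24 (SE 0.40, adjusted p = 0.211), followed by the interferon-induced eIF2α kinase gene Eif2ak2 at -0.81; both were named after their values were seen. Of 17 tested cytosolic heat-shock genes, which answer to unfolded proteins outside the ER, 3 were higher at an unadjusted p under 0.05. The share over all genes tested was 10.6%. None of the 17 passed after adjustment, and their median log2 difference was 0.17.

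**Figure D4:**
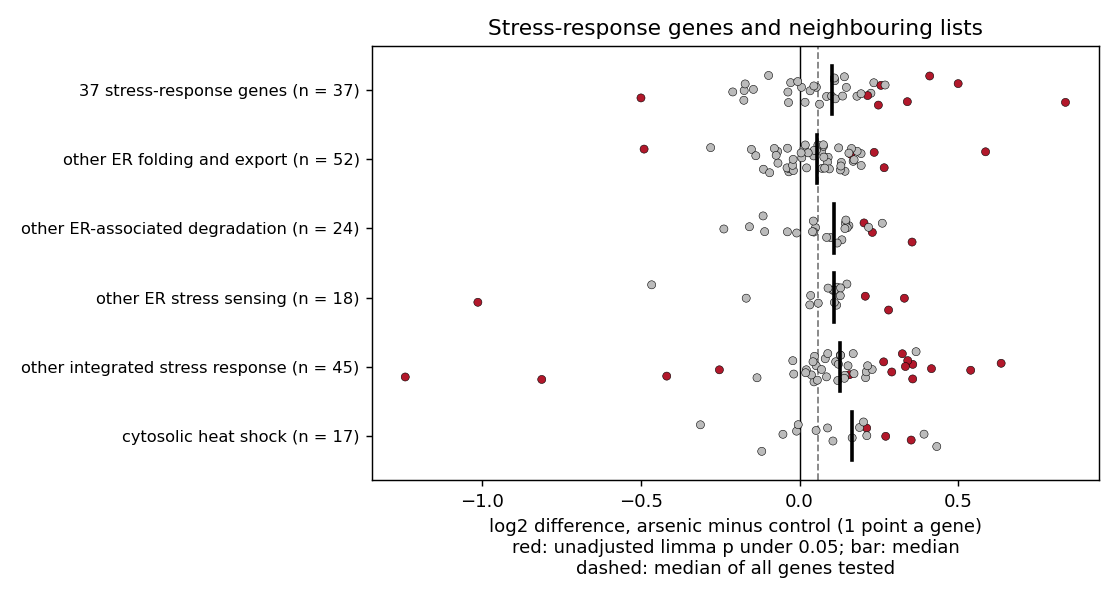
Log2 difference, arsenic minus control, of each tested gene (points) in the set of 37 and in 5 further lists; red points have an unadjusted limma p under 0.05, black bars are medians and the dashed line is the median of all genes tested, 0.057. Medians of the lists lie between 0.055 and 0.17, and single genes such as Mapk8 and Atf3 lie far to the left.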

How the data were processed

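Lung RNA of 5 arsenic and 5 control mice, 1 animal an array, was extracted with Trizol, cleaned up with Qiagen reagents and hybridised to Affymetrix Mouse430_2 arrays, per the labels' protocols. The authors deposited log2 values of 45101 probe sets; GCRMA is named in the submitters' processing notes, with no version given. The log2 scale of the deposited values was inferred from their range, 0.619 to 16.3. GCRMA draws dim probe sets towards a floor, which can make differences of dim genes too small. The number of arrays limits the precision.

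Gene symbols came from the array's platform annotation (34958 with 1 symbol, 932 with several, 9211 not listed), and only those with 1 symbol named a gene. A probe set was kept if it exceeded the median of the table, 4.20, on at least 5 arrays, and 22552 were. The kept probe set with the highest mean stood for its gene, which gave 11333 genes. Arsenic was compared with control by lmFit and eBayes in limma 3.58.1 (R 4.3.3), without covariates, with Benjamini-Hochberg adjustment over all 11333 genes and a threshold of 0.05; 43 genes were higher and 11 lower. Intervals of 95% come from the same fit. The script was tested on simulated data. Motifs were searched in RefSeq promoter windows of GRCm38.p6 with Python 3.11.15, and plots made with matplotlib 3.10.9.

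The 37 genes and the lists were chosen with earlier results of these data known. Named with all values were the 12 genes with the smallest p and the sensors and main factors; in other lists, up to 4 genes with the smallest p were named. Alternatives were 2 other filters, array weights, quantile normalization, the mean over probe sets, a replicate block, eBayes with trend and robust set, median centring, the kidney level as a covariate, and leaving out arrays. Deviations of same-numbered animals of the 2 groups correlated at -0.33 to 0.25.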

Additional observations from a re-analysis of the deposited data

Results flagged for a closer look

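Among the 74 groups of 5 values that the 37 genes give, 3 had 1 animal far from the other 4, by Dixon's criterion at the 95% level. Chance alone marks about 1 group in 20. Creld2 was at 10.82 in arsenic animal 2, and the next arsenic value was 10.50; without that animal its log2 difference was 0.15. Dnajb9 was at 12.18 in control animal 1, the highest of its group by 0.80 of the range, with the next at 11.98; without that animal the log2 difference was 0.19. Syvn1 was at 9.32 in control animal 4, with the next value at 9.63; without that animal the log2 difference was 0.19. None of the 3 genes passed the threshold with or without these animals.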

How the results depend on the processing

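No gene of the 37 passed the adjusted threshold under any of the 21 alternatives, the lowest adjusted p being 0.0530 for Herpud1. The 6 genes without overlap gave counts of 4 to 7 over the alternatives where such a count could be made, and leaving out single animals gave 6 to 7. The count at an unadjusted p under 0.05 was 8, where 10.6% of all genes were higher and 5.13% lower. It was 6 to 11 without single animals. With the kidney level as a covariate it was 16, where 24.95% of all genes were under that p. For the other alternatives no such share of all genes was counted, nor one of genes without overlap. A change in these counts can therefore not be read as particular to the 37. The median log2 difference was 0.10, and 0.058 to 0.12 without single animals. With array weights it was 0.045, below the 0.052 of all genes, and without both arsenic animal 5 and control animal 2, an alternative chosen after seeing the data, 0.089, with 6 genes without overlap and 7 at an unadjusted p under 0.05. A replicate block by the numbers in the titles gave 10 genes at an unadjusted p under 0.05 and none past the threshold; 2 of 5 same-numbered pairs correlated above 0.1 and 0 of 5 arsenic animals matched its own number best, so the numbers were not taken as pairs. The block changed no call of the 37 genes. At the 75th percentile filter 31 of the 37 were tested. Over all genes, 54 passed the threshold, against 19 without a filter, 5 with the block, 4 with the kidney covariate, 11 without arsenic animal 4 and control animal 2, 1 without arsenic animal 5 and control animal 2, and 9 to 41 without single animals. Log2 differences changed sign as follows. With the mean over probe sets, Hspa5 had 0.022, Ern1 -0.025, Ppp1r15b -0.059 and Sesn2 -0.017. Ppp1r15a had -0.0010 with quantile normalization, -0.032 with median centring and -0.029 with array weights. Dnajb11 had -0.021 with median centring and -0.013 with array weights, and Ppp1r15b -0.0055 with median centring. With the kidney covariate Pdia4 had 0.031, P4hb 0.041, Atf4 0.089 and Vldlr -0.12. Without both arsenic animal 4 and control animal 2, the values were Atf4 0.040 and Vldlr -0.0018, and leaving out arsenic animal 5 and control animal 2 gave Pdia4 0.012 and Pdia6 -0.0013. Without single animals the log2 differences ran from -0.064 to 0.082 for Atf4, -0.016 to 0.17 for Atf5, -0.045 to 0.077 for Dnajb11, -0.11 to 0.017 for Hspa5, -0.054 to 0.0099 for P4hb, -0.11 to 0.0044 for Pdia4, -0.0015 to 0.11 for Pdia6, -0.083 to 0.082 for Ppp1r15a and -0.0041 to 0.074 for Ppp1r15b. The cause of these changes was not tested.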

Other observations

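Genes outside the 37 whose promoter window holds one of the elements were looked at as a description. The long ER element was found in windows of 37 genes in all, and 6 tested genes outside the 37 have it; 5 of these had a positive log2 difference, with a median of 0.15 and a range of -0.050 to 0.20, and none was at an unadjusted p under 0.05. The C/EBP-ATF match was found in 242 tested genes outside the 37. Of these, 1 passed the adjusted threshold, higher in arsenic lungs, 31 were higher and 20 lower at an unadjusted p under 0.05, against 974 higher and 465 lower among the 9184 tested genes with a window. Their median log2 difference was 0.064, against 0.059 over all tested genes with a window. The 5 such genes among the 37 had a median of 0.27.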
